A study of Homo sapiens with 6 samples.

Results

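Homing receptors and leukocyte integrins were followed in REH cells after silencing of the ETV6/RUNX1 fusion. The 9 genes were the chemokine receptors CXCR4 and CCR7, the integrin α subunits ITGA4, ITGA5, ITGA6 and ITGAL, and the integrin β subunits ITGB1, ITGB2 and ITGB7. Members were taken as the Agilent catalogue probes whose RefSeq accession maps to one of these genes, which gave 12 probes for 9 genes among 25728 named catalogue probes for 19721 genes. All 12 probes passed the filter on dim probes, as did 27490 of all 57176 probes on the array.

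REH cells were grown from a B-cell precursor acute lymphoblastic leukemia (BCP-ALL), carry ETV6/RUNX1 and have lost the wild-type ETV6 allele. Of the 6 one-color arrays, 3 were from cells transduced with a non-targeting shRNA (control) and 3 from cells transduced with an shRNA on the ETV6 part of the fusion (knockdown). Per the study's methods, both hairpins were bought as ETV6 hairpins in lentiviral vectors carrying GFP, and the one that did not hit the fusion served as the control. GFP-positive cells were sorted before RNA extraction, replicates were biological triplicates, and all arrays came from 1 cell line, so that each value describes REH cells only. Values are normalized log2 intensities, which are compressed near background, and n = 3 arrays per group throughout.

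Leukocytes leave the blood in steps. Selectins slow the cell, chemokine receptors sense a chemokine on the vessel wall, and the receptor signal switches integrins into a form that binds their ligands on endothelium or matrix. Integrins are heterodimers of an α and a β chain, so that the surface level of one chain depends on its partner. In the bone marrow, CXCR4 and its ligand CXCL12, together with the α4β1 integrin and VCAM1, keep B-cell precursors close to stromal cells, and α6 integrin binds laminin.

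Median raw intensity was 66 to 75 per array, against 42.3 to 48.0 for the negative control spots, and 45.8% to 51.0% of probes were well above background. The ETV6 probe that passed the filter read 7.92, 8.05 and 8.37 on the control arrays and 7.50, 7.46 and 7.29 on the knockdown arrays, a difference of -0.70 (SE 0.14) that just missed the threshold (limma, adjusted p = 0.0513). None of the 5 RUNX1 probes passed the test (adjusted p from 0.512 to 0.943). These probes were named by ETV6 or RUNX1 transcripts and not by the fusion. The study followed the fusion itself by western blot and RT-qPCR and reported its silencing. All arrays were on 1 slide, where control 1 and control 2 lay in the first row and control 3 lay with the 3 knockdown arrays in the second row.

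First, the number of member probes that changed was determined. A probe was called where the limma test gave a Benjamini-Hochberg adjusted p under 0.05 over all 27490 retained probes. Of the 12 member probes, 3 were called and all of these fell after knockdown: both ITGA6 probes and the ITGAL probe. The ITGAL probe passed the filter through the control arrays alone, so that its place among the tested probes is not independent of its difference. Of all retained probes, 478 were called (1.74%), and 352 were called lower (1.28%). Replicate 1 of both groups deviated together from the group means (r = 0.426). Replicates 2 and 3 were hardly told apart, with same-number r of 0.287 and 0.204 against up to 0.187 between them. With the replicate number as a block 1038 of all retained probes were called (3.78%), but among the members still these 3 probes. The median difference over the 12 member probes was 0.08 on the log2 scale, with 7 probes higher and 5 lower, beside a median of -0.00 over all retained probes. Control and knockdown values did not overlap for 7 of the 12 member probes, against 18.9% of all retained probes. With 3 arrays against 3, the smallest two-sided p of an exact permutation test on 1 probe is 0.1. It takes this value wherever the groups do not overlap, as for each of the 7 probes, and so adds nothing to that separation.

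**Figure D1:**
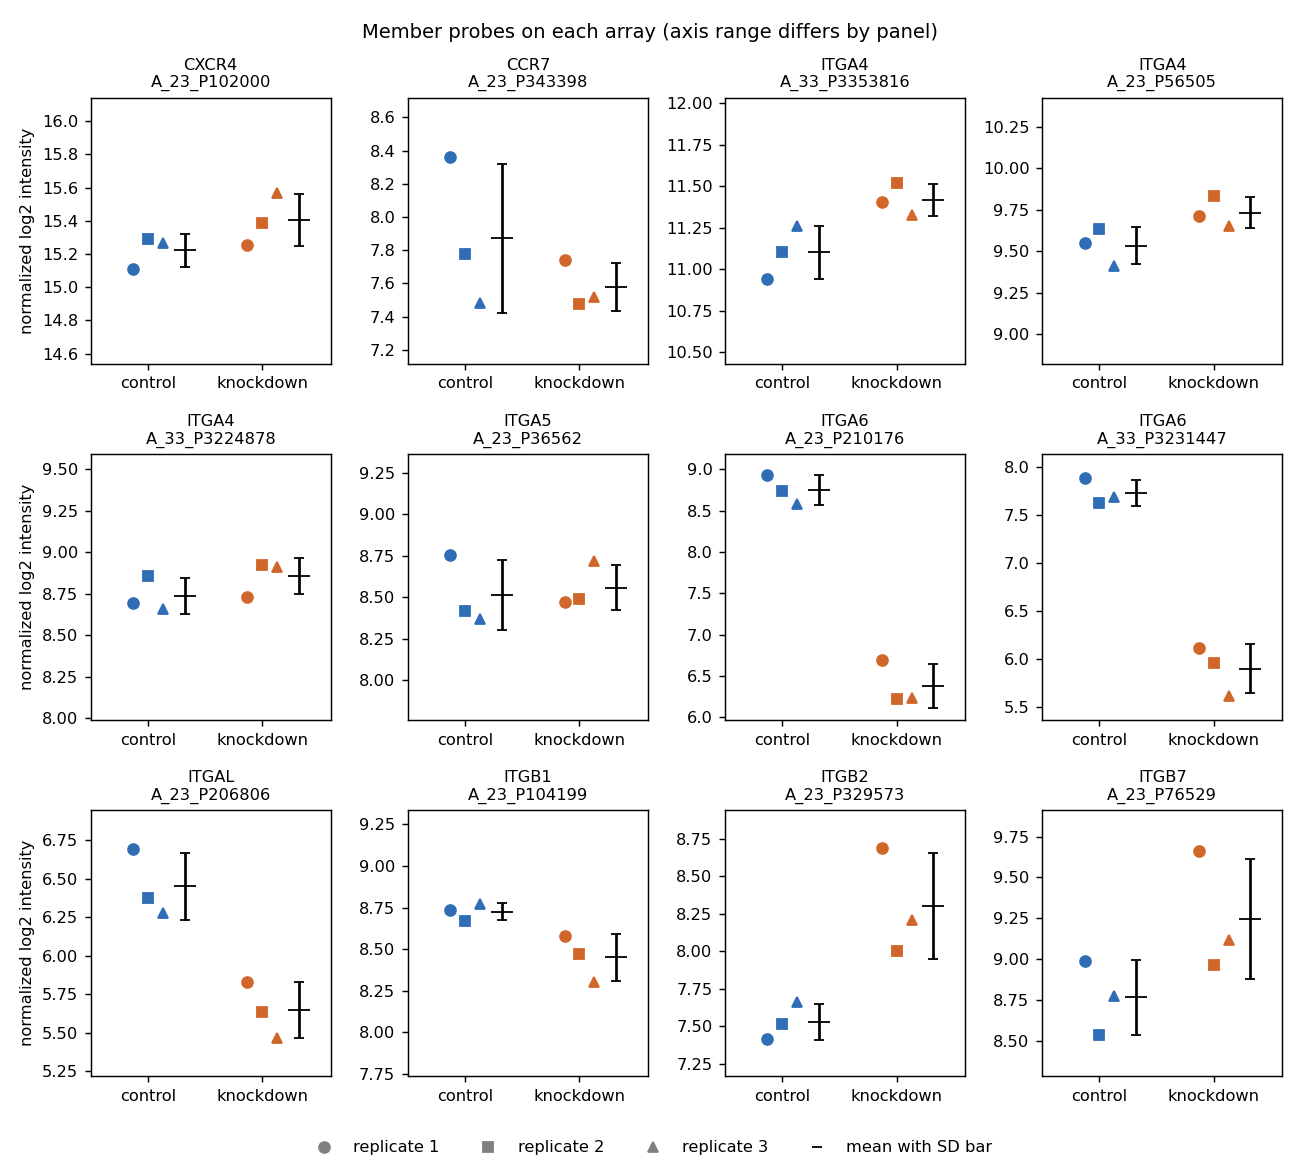
Normalized log2 intensity of the 12 member probes on each array, with control arrays in blue, knockdown arrays in orange, a marker shape for each replicate number, and the group mean with its SD beside the points (n = 3). The 2 ITGA6 probes and ITGAL lie lower on every knockdown array than on any control array, and ITGB2 lies higher; the axis range differs between panels.

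Next, the integrin α subunits were examined. ITGA6 encodes the α6 chain, which pairs with β1 or β4 to form laminin receptors. Its brighter probe, A_23_P210176, read 8.94, 8.74 and 8.58 on control arrays 1, 2 and 3, and 6.69, 6.22 and 6.24 on knockdown arrays 1, 2 and 3. Every knockdown value was thus well under every control value. The group means were 8.75 ± 0.18 and 6.38 ± 0.27 (SD, n = 3), and the probe fell by 2.37 on the log2 scale (SE 0.16; limma, adjusted p = 0.000589), a 5.17-fold lower level. The second ITGA6 probe, A_33_P3231447, read 7.89, 7.63 and 7.69 on the control arrays and 6.12, 5.97 and 5.62 on the knockdown arrays. It also separated the groups, although it was well above background on only 2 of the 3 knockdown arrays. It fell by 1.83 (SE 0.15; limma, adjusted p = 0.00108), a 3.56-fold lower level.

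The fall of ITGA6 was present within each replicate number. For the brighter probe, knockdown minus control was -2.25 for replicate 1, -2.52 for replicate 2 and -2.34 for replicate 3, and for the second probe -1.76, -1.66 and -2.07. Within the second slide row, where control 3 was the lone control, the differences were -2.20 and -1.79, and both probes were called with the row as a term (limma, adjusted p = 0.00694 and 0.0163). The row term compares control 3 alone with the knockdown arrays and takes its spread from the other arrays, so that it rests on a single control value. Both probes were called in each of 16 other settings. Their size depended on the processing: with the software's processed signal over the 75th percentile the differences were -2.92 and -2.85, and with normexp and quantile normalization -1.84 and -1.28. RNA was measured in bulk, so that fewer cells with the transcript cannot be told apart from less of it per cell.

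Since RUNX1 contributes its DNA-binding domain to the fusion, the bases before the annotated ITGA6 starts were read from the RefSeq promoter table (GRCh38.p14), in which 6 of the 9 members had 10 windows. CCR7, ITGAL and ITGB2 were not analysed here. The words searched were TGTGGT and TGCGGT (RUNX) and GGAA (the ETS core), on both strands and with no overlap between the RUNX and the ETS words. Stretches before both ITGA6 starts are shown because this gene had the largest change among the members. The first is the 250 bases before the upstream start, which hold neither word, at chr2:172427086-172427335 on the plus strand. The second is the 30 bases around the RUNX word (in capitals, found on the minus strand) ahead of the downstream start, at chr2:172427337-172427366.
ITGA6 upstream start: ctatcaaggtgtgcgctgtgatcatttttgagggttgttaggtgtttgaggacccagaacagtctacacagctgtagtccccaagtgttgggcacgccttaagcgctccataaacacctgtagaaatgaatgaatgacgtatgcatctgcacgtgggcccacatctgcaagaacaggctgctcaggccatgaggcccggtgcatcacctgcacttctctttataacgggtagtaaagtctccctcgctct
ITGA6 downstream start: tgctactcggcaACCACAattctgtccaca
The word lies 237 bases before the downstream start. One of the 3 CXCR4 windows also held a RUNX word, and the ITGA4, ITGA5, ITGB1 and ITGB7 windows held none. Of all 35116 promoter windows, 16.3% held a RUNX word and 92.7% an ETS core in the 250 bases before the start, so that such a match describes the sequence and marks no binding site.

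ITGAL encodes the αL chain of LFA-1, the integrin that binds ICAM1. Its probe, A_23_P206806, read 6.69, 6.38 and 6.28 on the control arrays and 5.83, 5.63 and 5.47 on the knockdown arrays. The groups did not overlap, but the signal was close to background. It was over the filter threshold, and well above background by the software's flag, on 3 of 3 control arrays and 1 of 3 knockdown arrays, so that the probe was retained only through the group where it is high. It fell by 0.80 (SE 0.14; limma, adjusted p = 0.0364), a size that rests on knockdown values mostly at background, and the replicate block gave an adjusted p of 0.00714. The difference was -0.86, -0.74 and -0.81 for replicates 1, 2 and 3. The call was lost without control 1 (adjusted p = 0.0866), control 2 (0.130), control 3 (0.0667), knockdown 2 (0.144) or knockdown 3 (0.149), and also with the slide row as a term (0.415), where the difference was -0.63. With no filter on dim probes the difference stayed at -0.80 but was not called (limma, adjusted p = 0.113), so that the call depends on the filter. With the processed signal the difference was -1.71 and with normexp -0.44, the latter not called (adjusted p = 0.0790).

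ITGA4 encodes the α4 chain, which pairs with β1 to bind VCAM1 and with β7 to bind MAdCAM-1. Its brightest probe, A_33_P3353816, read 10.94, 11.11 and 11.26 on the control arrays and 11.41, 11.52 and 11.33 on the knockdown arrays. The knockdown arrays were all higher, but by little for replicate 3. The difference was 0.32 (SE 0.12; limma, adjusted p = 0.305). The other ITGA4 probes differed by 0.20 (A_23_P56505, adjusted p = 0.496) and 0.12 (A_33_P3224878, adjusted p = 0.696), so that all 3 probes of the gene were higher and none passed the test. ITGA5, the α5 chain of the fibronectin receptor, read 8.75, 8.42 and 8.37 on the control arrays and 8.47, 8.49 and 8.72 on the knockdown arrays. The ITGA5 groups overlapped, with a difference of 0.04 (SE 0.13; adjusted p = 0.926) that was -0.00 without control 2, -0.03 without control 3 and -0.04 without knockdown 3.

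The integrin β subunits were considered next. ITGB2 encodes the β2 chain shared by LFA-1 and the other β2 integrins. It read 7.42, 7.51 and 7.66 on the control arrays and 8.69, 8.0 and 8.21 on the knockdown arrays. Every knockdown array was higher, and knockdown 1 was the highest. The difference was 0.77 (SE 0.18), a 1.70-fold higher level that missed the threshold (limma, adjusted p = 0.0925, and 0.0642 with the replicate block), and it was called in 0 of 16 other settings, with adjusted p from 0.0539 to 0.625. Within replicate numbers it was 1.27, 0.49 and 0.55. Of the 2 chains of LFA-1, ITGAL was thus lower and ITGB2 higher on all knockdown arrays, with ITGAL over the filter threshold on only 1 of these arrays.

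ITGB7, the partner of α4 in gut homing, read 8.99, 8.54 and 8.78 on the control arrays and 9.66, 8.96 and 9.12 on the knockdown arrays. The groups overlapped, because control 1 was above knockdown 2. The difference was 0.48 (SE 0.20; adjusted p = 0.367, and 0.0600 with the replicate block), and it was higher within each of the 3 replicate numbers, by 0.67, 0.43 and 0.34. Without knockdown 1 it was 0.27. ITGB1, the common partner of α4, α5 and α6, read 8.74, 8.67 and 8.77 on the control arrays and 8.58, 8.47 and 8.30 on the knockdown arrays. All 3 knockdown arrays were lower, but the difference of -0.27 (SE 0.11; adjusted p = 0.335) did not pass the test and was 0.01 under spike-in scaling. That scaling raised the median of all retained probes by 0.31, and relative to this shift ITGB1 was at -0.31.

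Among the chemokine receptors, no change passed the test. CXCR4, the receptor for CXCL12, read 15.11, 15.29 and 15.26 on the control arrays and 15.26, 15.39 and 15.57 on the knockdown arrays. Both groups were bright and overlapped, with a difference of 0.18 (SE 0.12; adjusted p = 0.575) that was 0.10 without knockdown 3 and 0.48 under spike-in scaling (0.17 relative to the shift). CCR7, the receptor for CCL19 and CCL21, read 8.36, 7.78 and 7.48 on the control arrays and 7.74, 7.47 and 7.52 on the knockdown arrays. Control 1 alone was high, and the groups overlapped, with a difference of -0.29 (SE 0.21; adjusted p = 0.634) that was 0.01 under spike-in scaling (-0.31 relative to the shift) and 0.10 with the slide row as a term. It was -0.05 without control 1 and -0.49 without control 3.

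**Figure D2:**
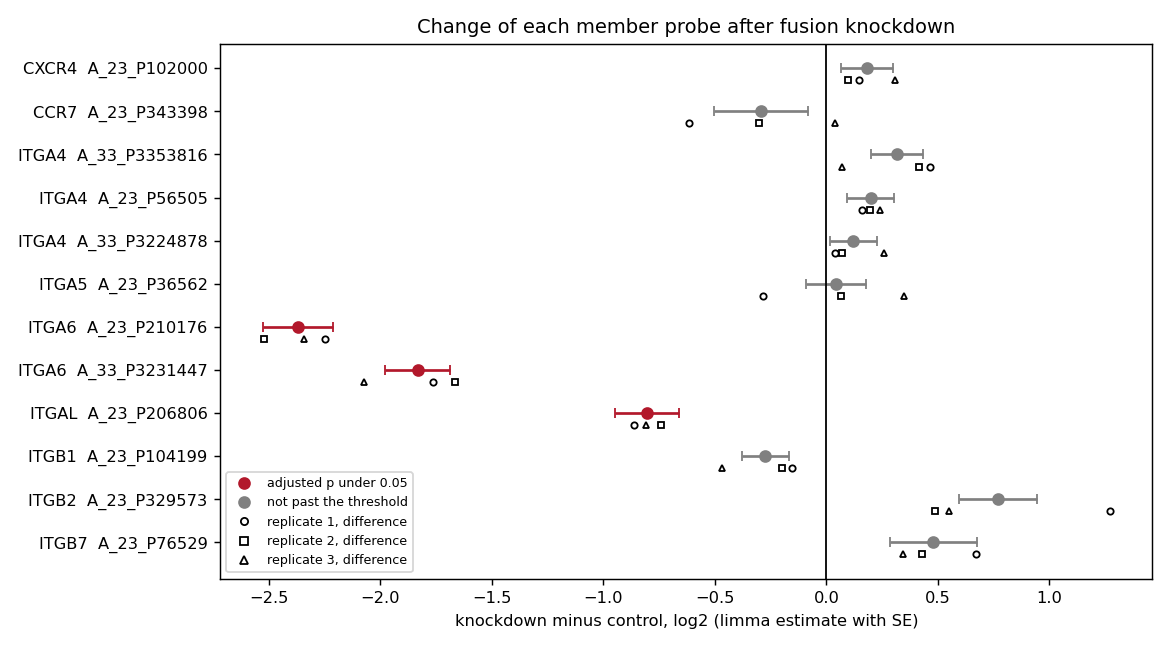
Knockdown minus control for the 12 member probes in log2 units, as the limma estimate with its SE (large points, red where the adjusted p was under 0.05) and as the difference within each replicate number (small open markers). ITGA6 and ITGAL fell with all 3 replicate differences below 0, ITGB2 and ITGB7 lay above 0 in all 3 without passing the test, and the CCR7 and ITGA5 differences lay on both sides of 0.

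Replicate 1 was then compared with replicates 2 and 3, with the group in the model, since this replicate differed from the others in many probes. Across all retained probes 1562 were called in that comparison (5.68%), but 0 of the 12 member probes by limma (5 at an unadjusted p under 0.05, a level passed by 24.0% of all retained probes). The lowest adjusted p-values were 0.0592 for ITGB7, which was 0.48 higher in replicate 1, 0.0704 for the brighter ITGA6 probe (0.37 higher), and 0.0854 for CCR7 (0.49 higher). With an intensity trend and robust prior 2 member probes were called, CCR7 and ITGB7, and with the processed signal 1, ITGAL.

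Other genes of the homing pathway were then examined in lists of 168 genes, of which 124 had a retained probe. Of their 147 retained probes, 8 were called, 3 higher and 5 lower, and the median difference was -0.03. With the replicate block 20 were called, 8 higher and 12 lower. With the slide row as a term 0 were called by limma (19 of 147 at an unadjusted p under 0.05, beside 7.50% of all retained probes), and the number of list probes called with 1 array left out was 5 (without control 1), 1 (control 2), 1 (control 3), 9 (knockdown 1), 1 (knockdown 2) and 2 (knockdown 3). Of the 8 calls, 4, 1, 1, 8, 1 and 2 were among these, respectively. ST3GAL6 alone was kept in all 6 of these fits, and the calls of PECAM1, ILK, CD81, WAS and RGS1 were each lost in at least 3. No gene of these lists is a member.

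Among 27 retained probes of selectins, selectin ligand enzymes and other adhesion molecules, 4 were called and all fell (median -0.16). ST3GAL6, a sialyltransferase that helps build selectin ligands, read 8.45, 8.47 and 8.31 on the control arrays and 7.61, 7.53 and 7.50 on the knockdown arrays. These groups were far apart relative to their spread, and ST3GAL6 fell by 0.86 (SE 0.10; adjusted p = 0.00505). PECAM1, an adhesion molecule of endothelium and leukocytes, fell on 3 probes, with differences of -1.14, -1.13 and -0.68 (adjusted p = 0.0463, 0.0121 and 0.0150). The third of these probes, A_33_P3229402, was over the filter threshold on 1 of 3 knockdown arrays and was retained only through the control group. Its brightest probe read 8.30, 8.45 and 8.54 on the control arrays and 7.78, 6.84 and 7.24 on the knockdown arrays. With the replicate block GCNT1, an enzyme of selectin ligand synthesis, was also called (difference -0.59, adjusted p = 0.0283).

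Of 38 retained probes of integrin activation genes, 2 were called and both rose (median -0.02). With the replicate block 6 were called, 4 higher and 2 lower. ILK, a kinase-like adaptor that binds the β1 tail, read 10.24, 10.21 and 10.09 on the control arrays and 10.85, 10.90 and 10.99 on the knockdown arrays, a rise of 0.73 (SE 0.10; adjusted p = 0.0103). CD81, a tetraspanin that associates with integrins, rose by 0.60 on one probe (SE 0.10; adjusted p = 0.0294). The other CD81 probe was higher by 0.48 (adjusted p = 0.0529), and it was called with the replicate block (adjusted p = 0.0430). The block also called RASSF5, an effector of RAP1 in integrin activation (0.57 higher, adjusted p = 0.0362), and, in the other direction, the adaptor SKAP2 (-0.50, adjusted p = 0.0386) and the tetraspanin CD82 (-0.77, adjusted p = 0.0247).

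Of 39 retained probes of chemokine receptor signalling, 2 were called (median 0.10), and 4 with the replicate block, 3 higher and 1 lower. WAS, the actin regulator lost in Wiskott-Aldrich syndrome, read 8.49, 8.68 and 8.55 on the control arrays and 9.19, 9.18 and 9.43 on the knockdown arrays. It rose by 0.69 (SE 0.11; adjusted p = 0.0239). RGS1, a GTPase-activating protein that dampens chemokine receptor signals, fell by 1.19 (SE 0.20; adjusted p = 0.0287) from 10.33, 9.77 and 9.76 to 9.07, 8.47 and 8.74. The block also called CORO1A, an actin-binding protein of leukocytes (0.51 higher, adjusted p = 0.0362), and one probe of the receptor kinase GRK6 (0.47 higher, adjusted p = 0.0388).

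No probe of the remaining lists was called by limma without the block, and over all retained probes 12.5% had an unadjusted p under 0.05. Of 9 retained probes of the other chemokine receptors (median -0.13), 1 had an unadjusted p under 0.05, and CX3CR1 (-0.79, adjusted p = 0.162) and ACKR3 (-1.05, adjusted p = 0.408) had the lowest p-values; both were called with the replicate block (adjusted p = 0.00850 and 0.00418). The CX3CR1 probe was over the filter threshold on 1 of 3 knockdown arrays, and was retained only through the control group where it is high. ACKR3 is a scavenger of CXCL12, and its level was higher for replicate 1 in both groups, at 9.94 against 8.53 and 8.70 for the control and 8.89 against 7.36 and 7.78 for the knockdown. Of 8 retained probes of the other integrin subunits (median -0.02), 2 had an unadjusted p under 0.05, with ITGA2B at -0.38 (adjusted p = 0.307) and ITGA9 at -0.43 (adjusted p = 0.324). ITGB4, the other partner of α6, differed by 0.03 (SE 0.10; adjusted p = 0.941). Of 13 retained ligand probes (median -0.06), 3 had an unadjusted p under 0.05, and the laminin chains LAMA3 (-0.51, adjusted p = 0.122) and LAMB1 (-0.63, adjusted p = 0.149) stood lowest in p and were called with the block (adjusted p = 0.0487 and 0.0200). The third was the chemokine CCL19 (0.38 higher, adjusted p = 0.196), which was over the filter threshold on 0 of 3 control and 3 of 3 knockdown arrays and was thus retained only through the knockdown group. Of 13 retained probes of genes of egress and homing regulation (median 0.04), 2 had an unadjusted p under 0.05, with S1PR3 at 0.34 (adjusted p = 0.303) and PTGER4 at 0.29 (adjusted p = 0.320).

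**Figure D3:**
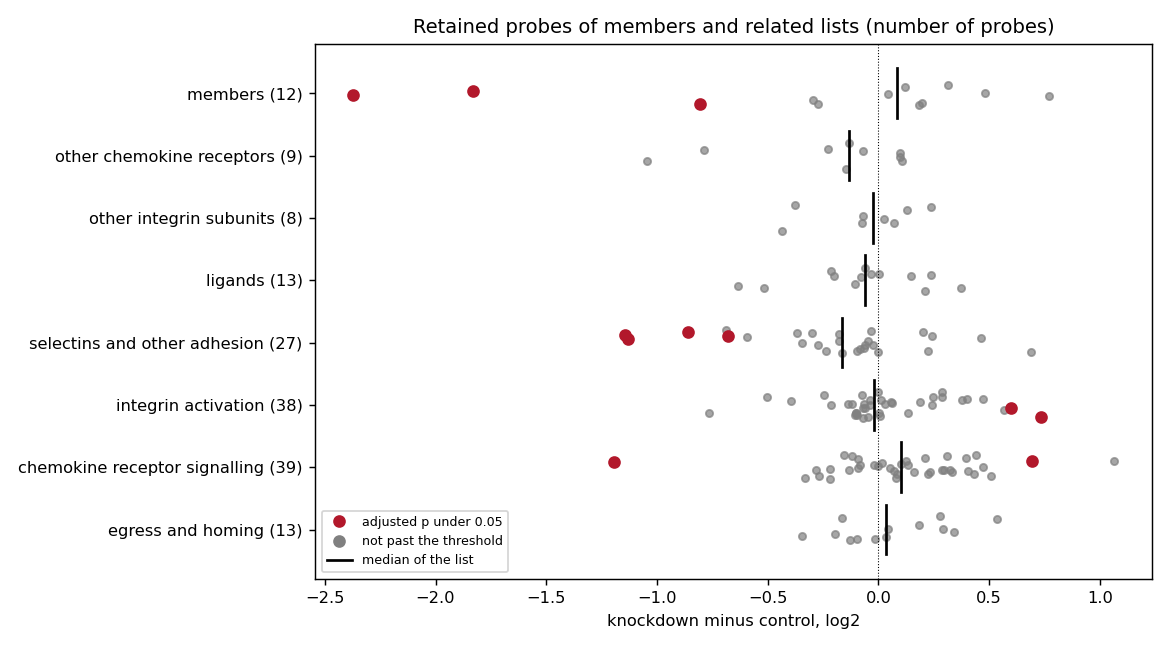
Knockdown minus control in log2 units for every retained probe of the members and of the other pathway lists, with called probes in red, the others in grey, and the median of each list as a black bar; points are spread vertically for legibility. The ITGA6 probes lie at -2.37 and -1.83, below every probe of the other lists, the lowest of which is RGS1 at -1.19.

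Markers of cell types were read on the same arrays. Of 12 genes of B-cell precursors, 11 had a retained probe, none of their 16 probes was called (6 at an unadjusted p under 0.05; 3 with the replicate block, all higher), and their summed level, in intensity units, was 279344 to 294848 in controls and 330784 to 369962 in knockdown cells. The block calls were both IGLL1 probes (adjusted p = 0.0133 and 0.0379) and CD79B (adjusted p = 0.0363). Of 7 myeloid genes on the array, MPO and CSF3R fell, with differences of -2.02 and -1.58 (adjusted p = 0.00108 and 0.0392), CD14 and CSF1R were not called, and ELANE, S100A8 and S100A9 were not retained. The MPO call was kept in 16 of 16 other settings, but the CSF3R call in 6 of 16. For CSF3R, a slide row term gave an adjusted p of 0.393, and leaving out any array other than knockdown 1 also ended the call (adjusted p up to 0.172). Summed levels of the myeloid probes were 17116 to 20028 in controls and 4223 to 6494 in knockdown cells, but MPO alone made up 77.7% to 88.0% of them on each array, and CD14 and CSF1R differed by -0.13 and -0.05. MPO thus moved in the same direction as ITGA6 and ITGAL, and its part in their change was not tested. None of the T and NK, erythroid and megakaryocyte, or fibroblast and epithelial marker probes was called by limma (2, 0 and 0 at an unadjusted p under 0.05).

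Genes with the most similar course to ITGA6 over the 6 arrays, by Pearson's r with its brighter probe, were LRRC70 (r = 0.999), MDGA2 (0.998), SOCS2 (0.997), MPO (0.997) and TFPI (0.997). Such values describe 6 arrays in which the groups are far apart, and the differences of these genes were -0.90, -1.76, -1.82, -2.02 and -2.29, each called. For ITGAL the most similar were RNF217 (r = 0.998), UTRN (0.997), PPP1R16A (0.997), ZEB1 (0.997) and GARIN1A (0.996), of which RNF217 and UTRN were called. The ITGAL probe was over the filter threshold on only 1 of 3 knockdown arrays, so that its r values rest partly on background.

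**Figure D4:**
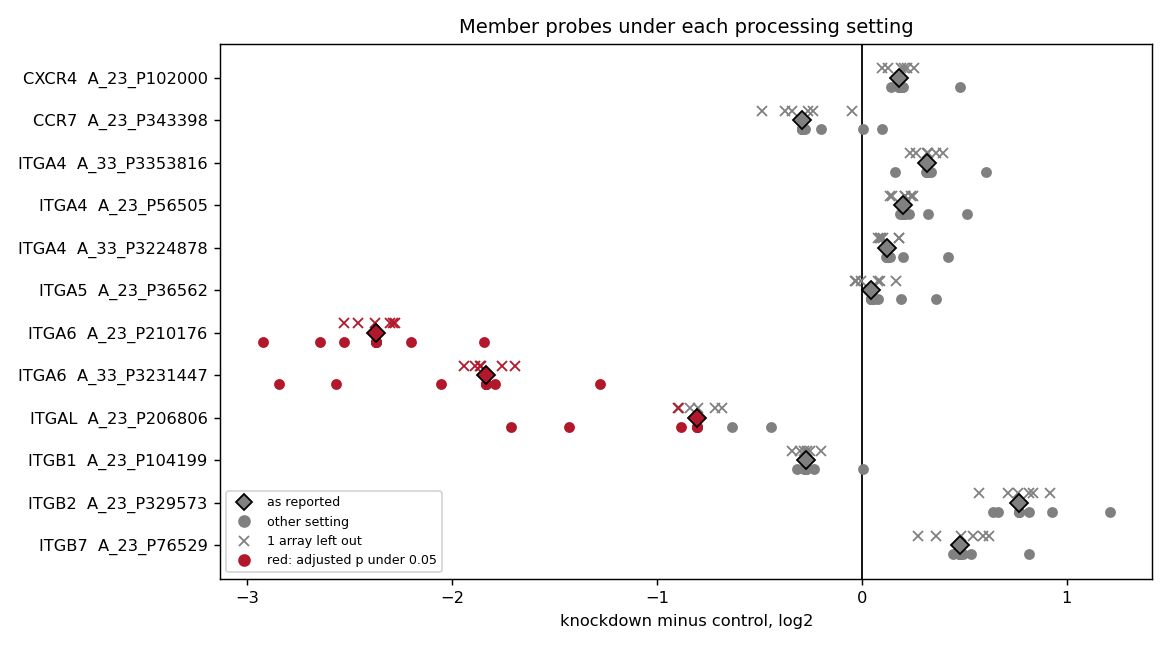
Knockdown minus control in log2 units for each member probe as reported (diamonds), under each other setting (circles) and with 1 array left out (crosses), in red where the adjusted p was under 0.05. ITGA6 is red in every setting, from -2.92 to -1.84 and from -2.85 to -1.28 for its 2 probes, ITGAL is red in 8 of 16 other settings, and no other member is red in any.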

How the data were processed

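Total RNA of 3 control and 3 knockdown samples was labelled with Cy3 and hybridized to 1-color Agilent arrays with 23042 custom lncRNA probes and 34134 catalogue probes. Per the file headers, spot intensities were extracted with Feature Extraction 10.7.1.1. The deposited intensities used here are raw median spot and local background intensities and a background-subtracted processed signal, and none is normalized between arrays. The authors also deposited normalized log2 values (VSN, background subtraction and a filter against negative controls), used here as an alternative.

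The VSN model was written anew and fitted to the raw median intensities, outlier spots were left out, and spots of a probe were averaged. Probes were kept where the value was over 1.1 times the 0.95 quantile of the normalized values of the 308 negative controls on 0.6 or more of a group's arrays. Pearson's r with the deposited values was 0.9990 to 0.9997 per array. Groups were compared by limma 3.58.1 in R 4.3.3 without a block (lmFit and eBayes, two-sided), and all adjusted p-values come from limma with Benjamini-Hochberg adjustment over all retained probes. Replicate numbers come from the labels. Deviations from the group means correlated between same-numbered arrays (r = 0.426, 0.287 and 0.204), and those of different number reached up to 0.187 (control 2 with knockdown 3). Every same-number r was over 0.1, but so was this last r and that of control 3 with knockdown 2 (0.170). The check thus sets only replicate 1 apart. The numbers were taken as pairs by their labels, and the block is given where it changes a call. Exact permutation tests used scipy 1.17.1. When the comparison was tested on simulated data with 27490 probes, limma called 50 of 50 probes set to each of -2, -1, 1 and 2 on the log2 scale, and 6 unchanged probes. The simulated noise was independent, had 1 setting for all probes, and held no replicate or slide row effect. These counts therefore do not give the share of such changes found on the real arrays. There, ACKR3 at -1.05 was not called (SE 0.46, limma adjusted p = 0.408).

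Catalogue probes were named by RefSeq accession (25728 of 34134 matched). The array design names hg19, so promoter windows carry the coordinates of their own table. Named genes were all members with every probe, the called genes of each pathway list or else the 2 genes of lowest p, and for members with a called probe the 5 genes of highest correlation. Members and lists were chosen with earlier results of these data known. Alternatives varied normalization, filter, outlier spots, block, prior, probe averaging, slide row and the arrays used. The number of arrays limits the precision.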

Additional observations from a re-analysis of the deposited data

How the results depend on the processing

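Both ITGA6 calls were kept in all alternatives run for single probes, whereas the ITGAL call was lost in 8 of 16. Over all probes, 478 were called, against 222 with no filter on dim probes (222 of them among the 478), 227 with the slide row as a term (109 among the 478), 1038 with the replicate block (478), and 191 to 547 with 1 array left out. In the pathway lists 8 probes were called, against 3 with the processed signal, 4 with no filter, 0 with the slide row, 20 with the replicate block and 1 to 9 with 1 array left out. Member calls between replicate 1 and the others were 0, but 1 with the processed signal and 2 with the intensity trend and robust prior. The direction turned for CCR7 to 0.099 with the slide row and for ITGA5 when 1 array was left out (-0.0351 to 0.1646). Under spike-in scaling, which raised the median of all probes by 0.31, CCR7 was at 0.0059 and ITGB1 at 0.0065, but both were at -0.31 relative to that shift. This scaling also turned the split of calls from 126 higher and 352 lower to 433 higher and 200 lower. The replicate block changed no call of a member. The cause of these differences was not tested. The dim level of ITGAL, near background in the knockdown arrays, limits its value.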
